A study of Mus musculus with 30 samples.

Results

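Bone matrix is largely type I collagen with a smaller set of noncollagenous proteins, and 8 mouse genes that encode these products were followed through fracture repair. The genes were *Col1a1* and *Col1a2*, which encode the chains of type I collagen, *Sparc* (osteonectin), *Ibsp* (bone sialoprotein), *Spp1* (osteopontin), the osteocalcin copies *Bglap* and *Bglap2*, and *Ifitm5*. They were chosen by name, with earlier results of these data known. They were matched by symbol to the Ensembl identifiers of the count table, where all 8 were present among 55416 gene identifiers. RNA was sequenced from the fracture callus of 30 mice after a non-stabilized closed fracture of the left tibia diaphysis, 1 library per mouse. At 3 days post-fracture (dpf) the study describes the sample as tibia dissected around the fracture site and at 6-dpf as whole callus, so the tissue taken and the stage of repair cannot be told apart in changes between those times. At 3-dpf there were 4 WT and 4 P-Apex1KO mice, at 6-dpf 5 and 3, at 10-dpf 4 and 3, and at 14-dpf 4 and 3. The study made the fractures at 7 to 12 weeks of age.

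P-Apex1KO mice were Prrx1-Cre+;Apex1C/C, in which Cre recombinase acts in limb bud mesenchyme from embryonic life onward and removes *Apex1*, a gene of base excision repair and redox control. Cells of the callus that come from elsewhere, such as blood, osteoclasts, macrophages and vessels, keep the gene. The WT group held littermates of several genotypes, with floxed *Apex1* alleles and no Cre or with Prrx1-Cre and 1 floxed allele, and the labels do not tell these apart. Each group mixed females and males except at 14-dpf, where the 3 P-Apex1KO mice were female and 1 of the 4 WT mice was.

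Osteoblasts secrete type I collagen as a triple helix of a pair of α1 chains and an α2 chain, and the noncollagenous proteins bind to the fibrils, to calcium or to cell surfaces while the matrix mineralizes. Fibroblasts and other mesenchymal cells also make type I collagen and SPARC, hypertrophic chondrocytes also make bone sialoprotein and osteopontin, and osteoclasts and macrophages make osteopontin, whereas osteocalcin and IFITM5 are largely products of the osteoblast lineage. In a long bone fracture, new bone forms directly under the periosteum and also replaces a cartilage callus, and type I collagen is made at both places.

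On GRCm39, *Col1a1* (ENSMUSG00000001506) lies at chr11:94827050-94843868 on the plus strand with 51 exons in its canonical transcript, and *Col1a2* (ENSMUSG00000029661) at chr6:4504814-4541555 on the plus strand with 52. *Sparc* (ENSMUSG00000018593) lies at chr11:55285317-55314067 on the minus strand. *Ibsp* (ENSMUSG00000029306, chr5:104447037-104459338) and *Spp1* (ENSMUSG00000029304, chr5:104582165-104589235) are neighbours on the plus strand of chromosome 5, in the SIBLING cluster of secreted, phosphorylated glycoproteins. *Ifitm5* (ENSMUSG00000025489) lies at chr7:140528871-140532098 on the minus strand. The osteocalcin copies stand in a row on the minus strand of chromosome 3, with *Bglap* (ENSMUSG00000074483) at chr3:88290808-88291771, *Bglap2* (ENSMUSG00000074486) at chr3:88285043-88286060 and *Bglap3* (ENSMUSG00000074489), a related copy expressed mainly outside bone, at chr3:88275923-88280052. Exons of *Spp1* share 362 bases with the gene model Gm42793 on the same strand, and those of *Ifitm5* share 227 bases with Gm45717, so reads there may not have been assigned. Gm45717 had 0 counts over all 30 libraries and Gm42793 had 10399, against 1373530 for *Spp1*.

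The coding sequences of *Bglap* and *Bglap2* are shown because the count table keeps only uniquely mapped reads and these copies are almost identical. Both are 288 bases long and differ at 4 of them, an identity of 98.611%, and capitals mark the differing bases. They are given 5′ to 3′ on the minus strand of GRCm39, joined from the coding exons between chr3:88290942-88291722 for *Bglap* and chr3:88285177-88285957 for *Bglap2*.
Bglap: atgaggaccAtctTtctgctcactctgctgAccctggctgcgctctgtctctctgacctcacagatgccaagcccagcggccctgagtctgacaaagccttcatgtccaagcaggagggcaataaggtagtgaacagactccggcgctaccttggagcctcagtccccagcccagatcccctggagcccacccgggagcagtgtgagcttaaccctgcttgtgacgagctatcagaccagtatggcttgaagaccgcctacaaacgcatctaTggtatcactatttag
Bglap2: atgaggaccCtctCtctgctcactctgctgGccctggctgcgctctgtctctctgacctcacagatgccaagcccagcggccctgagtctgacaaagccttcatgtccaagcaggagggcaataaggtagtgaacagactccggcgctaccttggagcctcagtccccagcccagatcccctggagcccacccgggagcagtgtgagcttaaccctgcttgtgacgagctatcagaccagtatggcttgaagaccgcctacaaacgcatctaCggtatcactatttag
Of the stretches of 59 bases, the length of 1 read, in the *Bglap* transcript of 440 bases, 71.728% occur letter for letter in another osteocalcin copy, and for the *Bglap2* transcript of 525 bases 75.803% do. A pair of reads is placed by both ends, so more pairs than single reads can be unique. How reads were split between the copies is uncertain, and their counts may understate their RNA. *Bglap3* differs from *Bglap2* at 9 coding bases and had at most 21 counts in any library.

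The libraries held from 18334389 to 43111491 counts on genes. Levels below are CPM, counts scaled to a common library total, after TMM normalization over all 30 libraries, each mouse is given in the order of its replicate number, and ± is the SD over mice. Genotype differences are log2 fold changes of P-Apex1KO over WT with sex in the model, with standard errors (SE), and were called at an adjusted p under 0.05 in edgeR. *Apex1* itself averaged 23.7 to 30.3 CPM in the WT groups, and in P-Apex1KO 27.4 at 3-dpf and 15.4, 15.5 and 16.0 at 6-, 10- and 14-dpf, below every WT mouse at the last 3 times. Its difference was called at 6-dpf (log2 fold change -0.67, adjusted p = 0.0071) and 10-dpf (-0.65, adjusted p = 0.0278) and not at 3-dpf (-0.15, adjusted p = 0.927) or 14-dpf (-0.29, adjusted p = 0.367; -0.55 and 0.0187 without sex). The 10-dpf call was lost without WT replicate 1 or any 1 P-Apex1KO mouse (adjusted p = 0.0571 to 0.104) and without sex (adjusted p = 0.0791). Because the tissue holds many cell types, fewer cells that make a transcript and less RNA per cell cannot be told apart in any difference below, and the p-values measure the spread between mice. P-Apex1KO replicate 1 at 3-dpf had the lowest level of its group for 7 of the 8 genes, the same library each time.

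In WT mice the 8 genes together took 2.93% to 3.41% of all counts at 3-dpf, 6.29% to 7.85% at 6-dpf, 7.85% to 10.5% at 10-dpf and 13.1% to 16.7% at 14-dpf. In P-Apex1KO mice the same share was 1.95% to 3.84% at 3-dpf, 3.44% to 4.78% at 6-dpf, 4.38% to 5.92% at 10-dpf and 4.19% to 4.43% at 14-dpf. The ranges of the genotypes overlapped at 3-dpf and were apart at the other times by the widest margin at 14-dpf. The names of the libraries change between 6- and 10-dpf, so a library batch and time cannot be told apart across that step. Most of these counts were collagen. At 14-dpf *Col1a1* and *Col1a2* alone made up 14.8%, 12.8%, 11.1% and 12.7% of the counts of the WT mice and 3.17%, 3.42% and 3.13% of those of the P-Apex1KO mice.

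**Figure D1:**
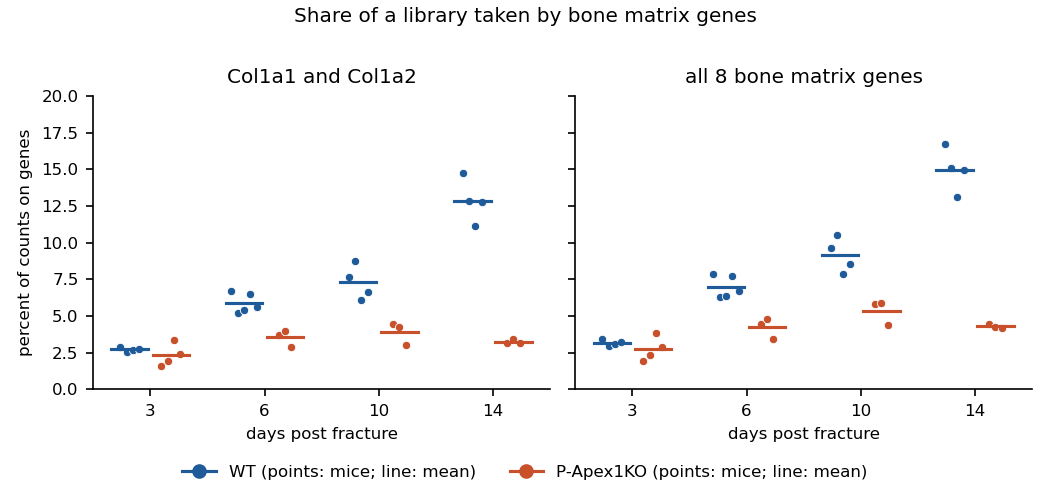
Percent of the counts on genes taken by bone matrix genes in each mouse, for the collagen pair (left) and all 8 (right), by days post-fracture and genotype (points are mice, lines are group means). For all 8, WT mice reach 13.1% to 16.7% at 14-dpf while P-Apex1KO mice stay between 4.19% and 4.43%.

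At 3-dpf no member passed the test between the genotypes, and at 6-, 10- and 14-dpf all 8 estimates were below 0. At 3-dpf 0 of 8 were called and 0 of 8 had every P-Apex1KO value below every WT value, where 0% of 19866 genes tested were called lower and 1.7% lay apart in that way. That 0 is edgeR's count over all genes in either direction, with 1216 genes at an unadjusted p under 0.05 and 85 called by DESeq2. At 6-dpf 6 of 8 were called lower against 5.61% of all genes, and 6 of 8 lay wholly below WT against 11.9%. At 10-dpf 2 of 8 were called lower against 3.44% of all genes, and 5 of 8 lay wholly below WT against 10.5%. At 14-dpf 4 of 8 were called lower against 7.04% of all genes, and 6 of 8 lay wholly below WT against 23.4%. None was called higher at any time. The median log2 fold change of the 8 was 0.04, -0.91, -0.82 and -2.23 at 3-, 6-, 10- and 14-dpf, where the median over all genes tested was 0.00, 0.01, 0.00 and 0.04. At 14-dpf the model with sex sets the 3 P-Apex1KO females against the only WT female, replicate 1. Values from the model without sex are therefore given beside the results of each of the 8 genes, and for some other genes and lists. The remaining 14-dpf values are from the model with sex only. The model without sex does not separate genotype from sex, since 3 of the 4 WT mice were male.

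**Figure D2:**
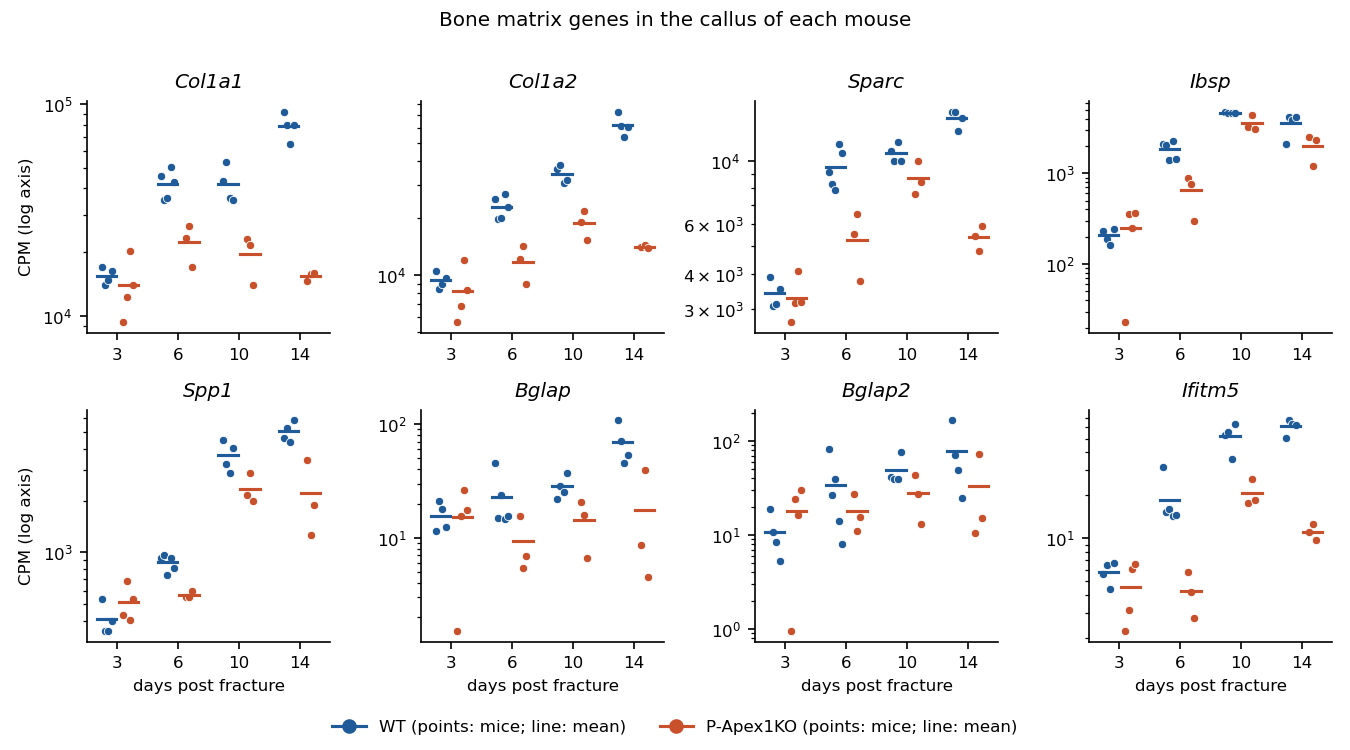
Level of each of the 8 genes in each mouse, in CPM on a log axis, by days post-fracture (points are mice, lines are group means). The genotypes overlap for every gene at 3-dpf, and at 14-dpf *Col1a1*, *Col1a2*, *Sparc*, *Spp1*, *Bglap* and *Ifitm5* lie apart.

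*Col1a1*, the gene of the more abundant chain of type I collagen, had the highest mean level of the 8 per kilobase of exon in every group. This level ran from 2131 CPM per kilobase in P-Apex1KO at 3-dpf to 12019.7 in WT at 14-dpf. Lengths were all annotated exons, 6567 bases for *Col1a1* and 12650 for *Col1a2*, whose coding lengths are 4362 and 4119. The order of the collagen genes per kilobase thus depends on the annotation. At 3-dpf *Col1a1* stood at 16998, 14005, 14762 and 16359 CPM in the WT mice and at 9339, 12314, 20336 and 13978 CPM in the P-Apex1KO mice. The WT values at 6-dpf were 45585, 35274, 36156, 50293 and 42810.5 CPM and the P-Apex1KO values 23407, 26668 and 17130.1 CPM. At 10-dpf the WT values were 43456, 53070.0, 35908 and 35209.5 CPM and the P-Apex1KO values 22989, 21642 and 14024 CPM. The groups overlapped at 3-dpf, where the P-Apex1KO mice held both the lowest and the highest value, and lay apart at 6- and 10-dpf. At 14-dpf the WT mice stood at 92164, 79401, 64912 and 79258 CPM (mean 78934 ± 11135) and the P-Apex1KO mice at 14693, 15722 and 16043 CPM (mean 15486 ± 705). The WT mean at 14-dpf was the highest of all groups, and the P-Apex1KO mean at 14-dpf was next to that of WT at 3-dpf, with overlapping ranges. The difference was not called at 3-dpf (log2 fold change -0.13, adjusted p = 0.945). It was called at 6-dpf (log2 fold change -0.88, SE 0.25, 1.84-fold lower, adjusted p = 0.0498) and at 10-dpf (-1.01, SE 0.24, 2.02-fold lower, adjusted p = 0.042). At 14-dpf it was the most negative of the 4 times (-2.55, SE 0.21, 5.84-fold lower, adjusted p = 0.000883), and without sex in the model it was -2.31. The 6-dpf call was lost on leaving out any 1 of 7 of the 8 mice (adjusted p = 0.0749 to 0.161, P-Apex1KO replicate 2 being the exception) and with the size factors of DESeq2 (adjusted p = 0.0518), and the 10-dpf call without WT replicate 1, 2 or 3 or P-Apex1KO replicate 1 or 3 (adjusted p = 0.109, 0.136, 0.0529, 0.206 and 0.134) or without sex (adjusted p = 0.0638).

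*Col1a2*, the gene of the other chain, had the same order of genotypes at 6-, 10- and 14-dpf. At 3-dpf the WT mice stood at 10481, 8410.2, 8971 and 9683 CPM and the P-Apex1KO mice at 5619, 6846, 11992 and 8334 CPM. In WT mice the 6-dpf values were 25242, 19885, 20014, 26797 and 22931 CPM and the P-Apex1KO values 12122, 14214 and 8971 CPM. At 10-dpf the WT values were 36389.8, 38213, 30729 and 31748 CPM and the P-Apex1KO values 19179, 21911 and 15360.1 CPM. The groups overlapped at 3-dpf and lay apart at both of the later times. At 14-dpf the WT mice stood at 73392, 61794, 53567 and 61005 CPM (mean 62439.5 ± 8189) and the P-Apex1KO mice at 14038, 14428 and 13914 CPM (mean 14127 ± 268), again with no overlap and with little spread among the P-Apex1KO mice. The difference was not called at 3-dpf (log2 fold change -0.17, adjusted p = 0.927) or at 10-dpf (-0.82, SE 0.22, adjusted p = 0.0596). It was called at 6-dpf (-0.94, SE 0.23, 1.91-fold lower, adjusted p = 0.0315) and at 14-dpf (-2.35, SE 0.19, 5.10-fold lower, adjusted p = 0.000867), where the model without sex gave -2.10. The 6-dpf call was lost on leaving out any of WT replicates 2 to 5 or P-Apex1KO replicate 1 or 3 (adjusted p = 0.0508 to 0.122), and at 10-dpf the gene was called without WT replicate 4 (adjusted p = 0.0379) or P-Apex1KO replicate 2 (adjusted p = 0.0463), with library size alone as the scaling (adjusted p = 0.0369), with no filter on low counts (adjusted p = 0.000529), in a model of all 30 libraries (adjusted p = 0.00919) and under DESeq2 (adjusted p = 5.56e-07).

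The ratio of the collagen chains varied less than their levels. Per kilobase of exon, *Col1a1* stood at 3.12, 3.21, 3.17 and 3.25 times *Col1a2* in the WT mice at 3-dpf and at 3.20, 3.46, 3.27 and 3.23 times in the P-Apex1KO mice. At 6-dpf the ratio was 3.48, 3.42, 3.48, 3.62 and 3.60 in WT and 3.72, 3.61 and 3.68 in P-Apex1KO. These ranges overlapped at both times, and the ratio was a little higher at 6-dpf than at 3-dpf in most mice. At 10-dpf it was 2.30, 2.68, 2.25 and 2.14 in WT and 2.31, 1.90 and 1.76 in P-Apex1KO, with overlap, and at 14-dpf it was 2.42, 2.48, 2.33 and 2.50 in WT and 2.02, 2.10 and 2.22 in P-Apex1KO, below every WT mouse. Every library at 10- and 14-dpf lay below every library at 3- and 6-dpf. The names of the libraries change between 6- and 10-dpf, and a library batch and the later stage of repair cannot be told apart there. The ratio uses all annotated exons of both genes as lengths, so its distance from the chain ratio of the protein cannot be read.

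**Figure D3:**
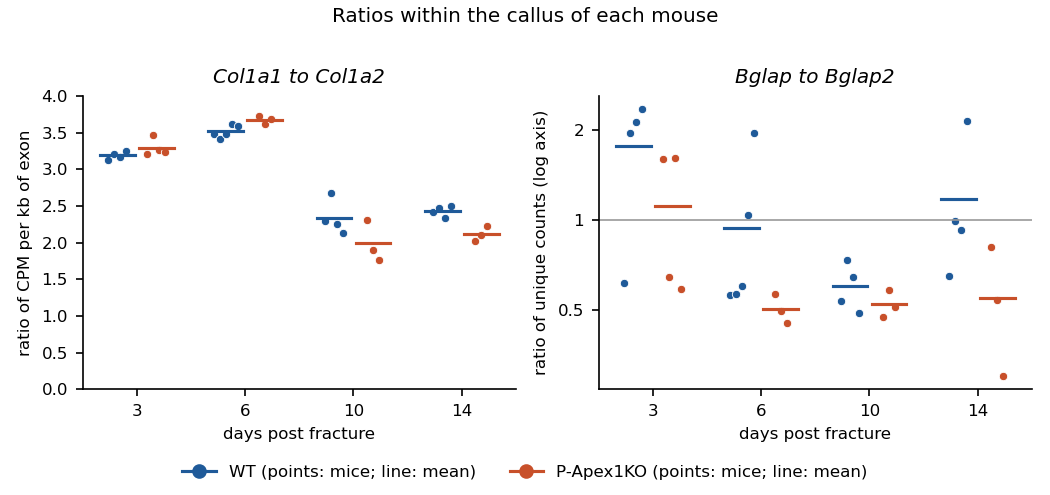
Ratio of *Col1a1* to *Col1a2* per kilobase of exon and of *Bglap* to *Bglap2* in counts (log axis), in each mouse, by days post-fracture and genotype (points are mice, lines are group means). The collagen ratio lies between 3.12 and 3.72 at 3- and 6-dpf and between 1.76 and 2.68 at 10- and 14-dpf, whereas the osteocalcin ratio spreads within single groups.

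*Sparc* encodes osteonectin, a collagen-binding glycoprotein that helps procollagen assemble into fibrils. At 3-dpf it stood at 3898, 3069, 3137 and 3519 CPM in WT and at 2691, 3141, 4097 and 3176 CPM in P-Apex1KO. At 6-dpf the WT values were 9149, 8293, 7905, 11410.5 and 10656 CPM and the P-Apex1KO values 5503, 6488 and 3752 CPM. The genotypes overlapped at 3-dpf and lay apart at 6-dpf. At 10-dpf WT mice stood at 10811, 9985, 11674 and 9959 CPM and P-Apex1KO mice at 7639, 10006 and 8375 CPM. At 14-dpf they stood at 14876, 14889, 12765 and 14158 CPM (mean 14172 ± 998) and at 5430.1, 4819.8 and 5865 CPM (mean 5372 ± 525). P-Apex1KO replicate 2 reached the WT range at 10-dpf, and no mouse did at 14-dpf. The difference was called at 6-dpf (log2 fold change -0.83, SE 0.23, 1.78-fold lower, adjusted p = 0.0482) and at 14-dpf (-1.44, SE 0.18, 2.72-fold lower, adjusted p = 0.00321; -1.36 without sex), and not at 3-dpf (-0.05, adjusted p = 0.975) or 10-dpf (-0.31, SE 0.17, adjusted p = 0.313). As for *Col1a1*, the 6-dpf call was lost without any 1 mouse other than P-Apex1KO replicate 2 (adjusted p = 0.0663 to 0.152). Per kilobase of exon, *Sparc* averaged 3324 CPM in WT at 14-dpf, against 12019.7 for *Col1a1* and 4936 for *Col1a2*. These values use all annotated exons as lengths, so their order depends on the annotation.

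*Ibsp* encodes bone sialoprotein, an acidic protein that binds hydroxyapatite and is found at sites of new mineral. At 3-dpf it stood at 232, 188, 163 and 245 CPM in WT and at 22.8, 354, 249.7 and 366 CPM in P-Apex1KO, where replicate 1 was far below the other 3. The WT values at 6-dpf were 2092, 2028, 1400.3, 2264 and 1452 CPM and the P-Apex1KO values 883, 764 and 302 CPM, with no overlap. At 10-dpf WT mice stood at 4799, 4591, 4607 and 4631 CPM, a narrow range, and P-Apex1KO mice at 3231, 4396 and 3055 CPM, all below it. At 14-dpf WT mice stood at 2121, 4179.8, 3882 and 4172 CPM and P-Apex1KO mice at 2516, 1199.8 and 2351 CPM. WT replicate 1 was the low one of its group at 14-dpf and lay within the P-Apex1KO range, and the 3 other WT mice lay above it. The difference was called at 6-dpf (log2 fold change -1.48, SE 0.35, 2.79-fold lower, adjusted p = 0.0276) and not at 3-dpf (0.22, SE 0.72, adjusted p = 0.976) or 10-dpf (-0.39, SE 0.17, adjusted p = 0.201). At 14-dpf it was -0.05 (SE 0.36, adjusted p = 0.95) with sex in the model, -0.79 (adjusted p = 0.0819) without sex, and -0.97 (adjusted p = 0.0258) without both sex and WT replicate 1, so that mouse decides the value. The 6-dpf call was lost without WT replicate 2 (adjusted p = 0.0758) or 4 (adjusted p = 0.0808) and with no filter on low counts (adjusted p = 0.156), and at 10-dpf the gene was called by DESeq2 (adjusted p = 0.0477).

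*Spp1* encodes osteopontin, a phosphorylated ligand of αv integrins and CD44 that also limits crystal growth. At 3-dpf it stood at 536, 349.8, 351 and 399 CPM in WT and at 434, 681, 405 and 536 CPM in P-Apex1KO, with overlap. In WT mice the 6-dpf values were 934, 964, 743, 927 and 814 CPM (mean 876 ± 94.0) and the P-Apex1KO values 551, 553 and 598 CPM (mean 567 ± 26.8), tight in both groups and apart. At 10-dpf WT mice stood at 4505, 3251, 2873 and 4039 CPM and P-Apex1KO mice at 2143, 2897 and 1992 CPM, with P-Apex1KO replicate 2 just above the lowest WT mouse. At 14-dpf WT mice stood at 4613, 5285, 4397 and 5859 CPM and P-Apex1KO mice at 3445, 1261 and 1891 CPM, all below WT but spread over a wider relative range. The difference was called at 6-dpf (log2 fold change -0.64, SE 0.12, 1.56-fold lower, adjusted p = 0.012) and not at 3-dpf (0.22, adjusted p = 0.875), 10-dpf (-0.63, SE 0.22, adjusted p = 0.119) or 14-dpf (-1.05, SE 0.45, adjusted p = 0.182). Without sex in the model the 14-dpf difference was -1.17 and passed the threshold (adjusted p = 0.0199), as it did without P-Apex1KO replicate 1 (adjusted p = 0.0121) and without sex and WT replicate 1 (-1.20, adjusted p = 0.0333). It was also called at 14-dpf in a model of all 30 libraries (adjusted p = 0.00243) and at 10-dpf by DESeq2 (adjusted p = 0.0107). The 6-dpf call was lost without P-Apex1KO replicate 1 (adjusted p = 0.0579).

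*Bglap* and *Bglap2* encode osteocalcin, a vitamin K-dependent calcium-binding protein of mature osteoblasts, and both spread widely between mice. *Bglap* stood at 11.5, 20.9, 17.9 and 12.5 CPM in WT and at 1.51, 15.5, 26.4 and 17.6 CPM in P-Apex1KO at 3-dpf. At 6-dpf the WT values were 45.8, 14.9, 23.6, 14.5 and 15.5 CPM and the P-Apex1KO values 15.5, 5.48 and 6.95 CPM. The groups overlapped at both times, and at 6-dpf P-Apex1KO replicate 1 was the mouse within the WT range. At 10-dpf WT mice stood at 22.0, 28.7, 25.2 and 37.4 CPM and P-Apex1KO mice at 20.6, 15.7 and 6.61 CPM. At 14-dpf WT mice stood at 108, 71.5, 45.7 and 53.1 CPM and P-Apex1KO mice at 8.56, 39.5 and 4.52 CPM. The groups lay apart at 10- and 14-dpf, by a small margin in each case. No difference of *Bglap* was called: the log2 fold change was 0.12 at 3-dpf (adjusted p = 0.983), -1.05 at 6-dpf (SE 0.32, adjusted p = 0.0696), -0.98 at 10-dpf (SE 0.39, adjusted p = 0.185) and -2.60 at 14-dpf (SE 0.90, adjusted p = 0.118), where it was -1.95 without sex (adjusted p = 0.0847). It passed the threshold at 6-dpf without WT replicate 1 (adjusted p = 0.0497) or 5 (adjusted p = 0.0169) and under DESeq2 (adjusted p = 0.0054), and at 14-dpf in a model of all 30 libraries (adjusted p = 0.00568) and without P-Apex1KO replicate 2, the high one of its group (-4.01, adjusted p = 0.00516).

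*Bglap2* stood at 18.7, 10.7, 8.39 and 5.32 CPM in WT and at 0.947, 24.1, 16.4 and 29.9 CPM in P-Apex1KO at 3-dpf. The WT values at 6-dpf were 81.6, 26.5, 39.4, 14.0 and 7.93 CPM and the P-Apex1KO values 27.4, 11.1 and 15.4 CPM. WT mice of that time thus spanned a wider range than the genotypes did. At 10-dpf WT mice stood at 41.1, 39.1, 39.2 and 76.4 CPM and P-Apex1KO mice at 43.4, 27.0 and 13.0 CPM. At 14-dpf WT mice stood at 167, 71.9, 49.5 and 24.7 CPM and P-Apex1KO mice at 10.5, 73.6 and 15.1 CPM. The genotypes overlapped at all 4 times, and no difference was called (log2 fold changes 0.67, -0.61, -0.82 and -2.31, adjusted p = 0.933, 0.642, 0.328 and 0.176 at 3-, 6-, 10- and 14-dpf), although without P-Apex1KO replicate 2 the 14-dpf value was -3.69 (adjusted p = 0.0377) and without sex it was -1.20 (adjusted p = 0.33). Summing the counts of the 3 osteocalcin copies, which avoids the split between them, gave 0.39, -0.77, -0.88 and -2.41 (adjusted p = 0.957, 0.373, 0.268 and 0.138).

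The copies did not keep a fixed ratio. *Bglap* counts were 0.612, 1.96, 2.13 and 2.35 times those of *Bglap2* in WT at 3-dpf and 1.60, 0.643, 1.61 and 0.587 times in P-Apex1KO. At 6-dpf the ratio was 0.561, 0.564, 0.599, 1.04 and 1.95 in WT and 0.567, 0.493 and 0.450 in P-Apex1KO. At 10-dpf it was 0.536, 0.736, 0.644 and 0.489 in WT and 0.474, 0.582 and 0.509 in P-Apex1KO, and at 14-dpf 0.647, 0.994, 0.924 and 2.15 in WT and 0.812, 0.537 and 0.300 in P-Apex1KO. Mice of 1 group and time thus differed in which copy was counted more often, at 3-dpf in both genotypes and at 6- and 14-dpf in WT, and at 10-dpf *Bglap2* was ahead in all 7 mice. The part of unequal read mapping in this ratio was not tested.

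*Ifitm5* encodes a small membrane protein of osteoblasts at sites of mineralization, and mutation of the human gene causes a form of brittle bone disease. At 3-dpf it stood at 5.62, 6.46, 4.44 and 6.73 CPM in WT and at 2.24, 3.15, 6.12 and 6.61 CPM in P-Apex1KO, with overlap. In WT mice the 6-dpf values were 31.8, 15.3, 16.1, 14.3 and 14.6 CPM and the P-Apex1KO values 5.81, 4.23 and 2.77 CPM. Every WT mouse at 6-dpf lay well above the highest P-Apex1KO mouse, and WT replicate 1 was far above the other 4. At 10-dpf WT mice stood at 52.7, 55.8, 36.1 and 63.0 CPM and P-Apex1KO mice at 17.5, 26.1 and 18.5 CPM. At 14-dpf WT mice stood at 50.1, 67.3, 63.6 and 62.4 CPM (mean 60.8 ± 7.46) and P-Apex1KO mice at 11.1, 12.6 and 9.80 CPM (mean 11.2 ± 1.41). The groups were apart at all 3 of these times, and *Ifitm5* and *Col1a1* were the 2 genes called at each of them. The difference was -0.34 at 3-dpf (adjusted p = 0.909), -1.95 at 6-dpf (SE 0.29, 3.87-fold lower, adjusted p = 0.00469), -1.32 at 10-dpf (SE 0.23, 2.50-fold lower, adjusted p = 0.0263) and -2.14 at 14-dpf (SE 0.14, 4.41-fold lower, adjusted p = 0.000534), where the model without sex gave -2.41. The 10-dpf call was lost without WT replicate 1 or 2 or P-Apex1KO replicate 1 or 3 (adjusted p = 0.0768, 0.0716, 0.184 and 0.0706) and with no filter on low counts (adjusted p = 0.0828). At 14-dpf the calls of *Col1a1*, *Col1a2*, *Sparc* and *Ifitm5* held without each mouse in turn, where leaving out WT replicate 1 also leaves out the sex term.

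**Figure D4:**
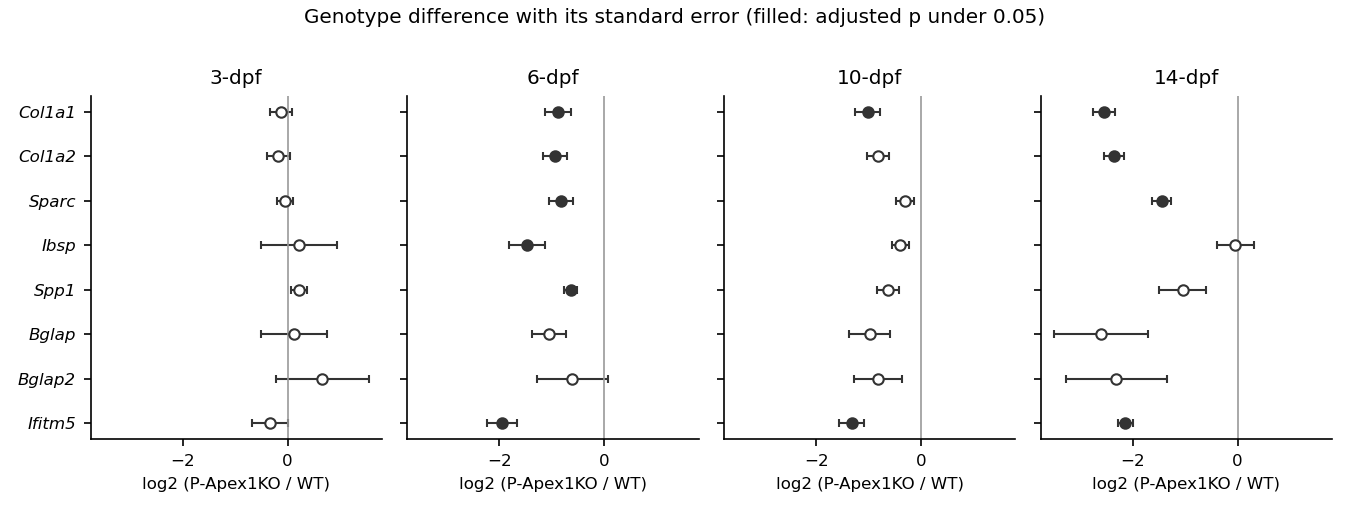
Log2 fold change of P-Apex1KO over WT for each of the 8 genes at 3-, 6-, 10- and 14-dpf, with SE as bars and filled points where the adjusted p was under 0.05. Estimates lie around 0 at 3-dpf and below 0 at the later times, with *Col1a1* at -2.55, *Col1a2* at -2.35 and *Ifitm5* at -2.14 at 14-dpf.

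Between 3- and 6-dpf, when soft callus and the first periosteal bone form, bone matrix transcripts rose in WT mice and mostly did not pass the test in P-Apex1KO mice. In WT, 6 of 8 were called higher at 6-dpf, where 15.4% of 20468 genes were, and in all 6 every mouse at 6-dpf lay above every mouse at 3-dpf. The share of all genes that lay apart in this way between times was not counted. The log2 changes were 3.14 for *Ibsp* (adjusted p = 0.00165), 1.55 for *Ifitm5* (0.00198), 1.44 for *Sparc* (2.33e-05), 1.39 for *Col1a1* (0.000149), 1.24 for *Col1a2* (0.000291) and 1.11 for *Spp1* (1.7e-05), the values in parentheses being adjusted p. The osteocalcin genes were not called (*Bglap* 0.38, adjusted p = 0.599, and *Bglap2* 1.48, adjusted p = 0.189). In P-Apex1KO, *Sparc* was the only 1 of 8 called higher (log2 change 0.68, adjusted p = 0.0273), where 7.1% of all genes were, and its call was lost on leaving out P-Apex1KO replicate 1, 2 or 4 of 3-dpf or replicate 1 or 2 of 6-dpf (adjusted p = 0.0546 to 0.191). The other P-Apex1KO changes were 0.69 for *Col1a1* (adjusted p = 0.0584, and 0.0151 to 0.0429 under DESeq2, with library size alone, with a minimum of 10 counts and in a model of all 30 libraries), 0.53 for *Col1a2*, 1.41 for *Ibsp*, 0.19 for *Spp1*, -0.12 for *Ifitm5*, -0.81 for *Bglap* and -0.09 for *Bglap2*, with adjusted p from 0.132 to 0.964 for the last 6.

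The difference between these changes was tested in the same model. *Spp1* was the 1 of 8 genes whose genotype difference became more negative from 3- to 6-dpf (-0.92, SE 0.19, adjusted p = 0.0317), where 0.987% of all genes did. That call was lost without sex in the model (adjusted p = 0.0703), with library size alone as the scaling (adjusted p = 0.0739), in a model of all 30 libraries (adjusted p = 0.116) and on leaving out WT replicate 2, 3 or 4 of 3-dpf, WT replicate 5 of 6-dpf or P-Apex1KO replicate 2 or 3 of 6-dpf (adjusted p = 0.0518 to 0.0864). For the 7 others the estimates were also below 0, at -0.70 for *Col1a1*, -0.71 for *Col1a2*, -0.76 for *Sparc*, -1.19 for *Bglap*, -1.57 for *Bglap2*, -1.67 for *Ifitm5* and -1.72 for *Ibsp*, with adjusted p from 0.125 to 0.662. Without P-Apex1KO replicate 1 of 3-dpf, *Ibsp* (-2.10, adjusted p = 0.0179) and *Ifitm5* (-1.88, adjusted p = 0.0432) passed the threshold too, as *Ifitm5* did under DESeq2 (adjusted p = 0.0112) and in a model of all 30 libraries (adjusted p = 0.0369).

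From 10- to 14-dpf the collagen genes rose in WT and did not in P-Apex1KO. In WT, *Col1a1* (log2 change 1.01, adjusted p = 0.00189) and *Col1a2* (0.91, adjusted p = 0.00168) were the 2 of 8 called higher, where 6.19% of 19705 genes were. *Sparc* (0.39, adjusted p = 0.0646) and *Bglap* (1.31, adjusted p = 0.182) lay above the 10-dpf range in every mouse without being called. *Ibsp* went the other way in WT, with every mouse at 14-dpf below every mouse at 10-dpf (-0.51, adjusted p = 0.213). How many of all genes lay apart between 10- and 14-dpf was not counted. In P-Apex1KO 0 of 8 were called higher by edgeR, where 0.0304% of all genes were, and 0 of 8 were called lower, where 45 of 19705 genes were. An unadjusted p under 0.05 was reached by 4 of the 8 and by 2811 of all genes. DESeq2 called 4 lower there (*Col1a1*, *Col1a2*, *Sparc* and *Ifitm5*, adjusted p = 0.0439, 0.0115, 0.00175 and 0.0408), and in WT *Sparc* was called higher by DESeq2 (adjusted p = 0.00448), with library size alone (0.043) and with no filter (0.0113). The P-Apex1KO estimates were -0.58 for *Col1a1* (adjusted p = 0.219), -0.56 for *Col1a2* (0.181), -0.65 for *Sparc* (0.0984), -0.60 for *Ibsp* (0.381) and -0.79 for *Ifitm5* (0.151), where all of these but *Col1a1* lay below the 10-dpf range in every mouse. The genotype difference became more negative for 2 of 8 genes, *Col1a1* (-1.58, SE 0.27, adjusted p = 0.0345) and *Col1a2* (-1.47, SE 0.24, adjusted p = 0.0304), where 0.396% of all genes did. For the 6 others the adjusted p ran from 0.0587 (*Sparc*, -1.03) to 0.952 (*Ibsp*, -0.10), and *Sparc* passed without sex, with no filter, in a model of all 30 libraries and under DESeq2 (adjusted p = 3.35e-05 to 0.0458). The *Col1a1* call was lost without sex (adjusted p = 0.0823), with library size alone as the scaling (adjusted p = 0.0581) and in 10 of the 14 fits without 1 mouse (adjusted p = 0.0504 to 0.112), and the *Col1a2* call without WT replicate 3 or 4 of 10-dpf, WT replicate 1, 2 or 4 of 14-dpf or P-Apex1KO replicate 1 of 14-dpf (adjusted p = 0.0508 to 0.117).

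Over all 8 groups the genes fell into different orders. Between the groups of 3- and 6-dpf and those of 10- and 14-dpf, a library batch and time cannot be told apart. The orders are descriptions without a test. *Col1a1*, *Col1a2* and *Sparc* were highest in WT at 14-dpf, with no overlap with the next group. *Col1a2* and *Sparc* were lowest at 3-dpf in both genotypes, where the ranges overlapped. For *Col1a1*, P-Apex1KO at 6- and 10-dpf, WT at 3-dpf and P-Apex1KO at 14- and 3-dpf came in that order, each overlapping the next. P-Apex1KO at 6-dpf (17130.1 to 26668 CPM) lay above WT at 3-dpf (14005 to 16998 CPM) and P-Apex1KO at 14-dpf (14693 to 16043 CPM). *Ibsp* was highest in WT at 10-dpf (mean 4657 ± 95.8 CPM), and P-Apex1KO at 10-dpf (3561 ± 729 CPM) stood beside WT at 14-dpf (3589 ± 988 CPM), with overlapping ranges. *Spp1* was highest in WT at 14-dpf (5039 ± 665 CPM) and next in WT at 10-dpf (3667 ± 740.3 CPM), which overlapped. *Ifitm5* in P-Apex1KO was highest at 10-dpf (20.7 ± 4.67 CPM), where it overlapped WT at 6-dpf (18.4 ± 7.49 CPM). *Bglap* was highest in WT at 14-dpf (69.7 ± 28.0 CPM), apart from the next group, and from there down each group overlapped the next, as did the groups of *Bglap2* throughout.

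Transcription factors of the osteoblast lineage were lower in P-Apex1KO over the same times. Of 8 osteoblast regulators, 0 of 7 tested were called at 3-dpf, 6 of 8 were lower at 6-dpf, 6 of 7 at 10-dpf and 6 of 8 at 14-dpf, with median log2 fold changes of -0.78, -0.96 and -1.75 at the last 3. Over all genes tested, 5.61%, 3.44% and 7.04% were called lower at 6-, 10- and 14-dpf. These shares also apply to the lists that follow. *Runx2*, the master transcription factor of the lineage, stood at 160 ± 5.15 CPM in WT and 98.3 ± 9.77 CPM in P-Apex1KO at 6-dpf (log2 fold change -0.66, adjusted p = 0.00248), and at 329 ± 24.7 and 146 ± 42.8 CPM at 14-dpf (-1.29, adjusted p = 0.0147). *Sp7*, which encodes osterix and acts downstream of *Runx2*, stood at 128 ± 18.6 and 47.0 ± 18.0 CPM at 6-dpf (-1.36, adjusted p = 0.00675) and at 327 ± 28.1 and 88.4 ± 13.6 CPM at 14-dpf (-2.02, adjusted p = 0.000586). Both were also lower at 10-dpf (*Runx2* -0.87, adjusted p = 0.00798, and *Sp7* -0.92, adjusted p = 0.0145). Without P-Apex1KO replicate 1 of 10-dpf, 0 of the regulators were called at that time (*Runx2* adjusted p = 0.0585 and *Sp7* 0.0969), and without WT replicate 1 or 2 there were 2 and 3 (*Sp7* adjusted p = 0.0612 and 0.0531). *Sp7* also lost its 10-dpf call in a model of all 30 libraries (adjusted p = 0.102).

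RUNX2 protein binds the letters ACCACA or their reverse complement, and these promoters are shown because *Bglap* is the textbook target of that factor. The 250 bases before the canonical start site on GRCm39 were searched on both strands for these letters, for the homeodomain core TAATTA, for the letters TATAAA of the TATA box and for the CCAAT box, 4 motifs that do not overlap in the members. The RUNX letters were found in 3 of the 8 members, *Bglap*, *Bglap2* and *Ifitm5*, where 13.0% of 21757 promoters of protein-coding genes hold it. The stretch around it in the osteocalcin genes, 126 bases that differ at 3 positions, runs 5′ to 3′ on the minus strand from 225 to 100 bases before the start of *Bglap* (chr3:88291840-88291965) and from 140 to 15 bases before that of *Bglap2* (chr3:88286075-88286200), with ACCACA in capitals.
Bglap: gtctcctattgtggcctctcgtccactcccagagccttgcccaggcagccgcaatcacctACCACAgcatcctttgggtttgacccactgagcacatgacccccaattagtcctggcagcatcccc
Bglap2: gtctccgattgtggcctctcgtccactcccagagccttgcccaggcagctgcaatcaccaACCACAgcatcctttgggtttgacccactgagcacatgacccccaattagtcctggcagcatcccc
In *Ifitm5* the letters lie 192 bases before the start. TATAAA was found in 1 member, *Bglap*, and in 11.9% of all promoters, CCAAT in 4 members (*Col1a1*, *Bglap*, *Bglap2* and *Ifitm5*) and in 36.5%, and TAATTA in 0 members and 5.16%. The annotated start of *Bglap2* lies further upstream in the shared sequence. The bases that match the place of TATAAA in *Bglap* were thus outside the part of *Bglap2* searched. A match is a description of letters only, and binding was not measured here.

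Type I procollagen is folded and trimmed by a set of helper proteins, several of which were lower in P-Apex1KO. Of 12 folding and processing genes, 0 were called at 3-dpf, 8 were lower at 6-dpf, 2 at 10-dpf (*Bmp1* and *Adamts2*) and 7 at 14-dpf, with medians of -0.74, -0.19 and -0.78. *Serpinh1*, the collagen chaperone HSP47, was lower at 6-dpf (2291 ± 430.0 CPM in WT and 1238 ± 263 CPM in P-Apex1KO, log2 fold change -0.85, adjusted p = 0.0275) and at 14-dpf (-1.15, adjusted p = 0.00381), and was at -0.40 at 10-dpf (adjusted p = 0.161). *Bmp1*, the procollagen C-proteinase, was lower at 10-dpf (-0.62, adjusted p = 0.0211) and 14-dpf (-1.59, adjusted p = 0.00111) and was at -0.29 at 6-dpf (adjusted p = 0.243). *Lox*, which crosslinks collagen, was not called at 6-dpf (-0.46, adjusted p = 0.138), 10-dpf (0.06, adjusted p = 0.851) or 14-dpf (-0.70, adjusted p = 0.169), and its 10-dpf sign turned without P-Apex1KO replicate 1 or 2 or WT replicate 4 (-0.03 to 0.00). The 8 genes lower at 6-dpf became 3, 3 and 4 without WT replicate 2, WT replicate 4 and P-Apex1KO replicate 1, and the *Serpinh1* call was lost without these or P-Apex1KO replicate 3 (adjusted p = 0.0532 to 0.083). The 2 at 10-dpf became 0 without WT replicate 1 or 2 or P-Apex1KO replicate 1 or 3 (*Bmp1* adjusted p = 0.0575 to 0.11), 1 without WT replicate 3 and 4 without WT replicate 4. In a model of all 30 libraries 1 was lower at 10-dpf and 11 at 14-dpf, and 11 were at 14-dpf without sex.

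Enzymes that modify the noncollagenous proteins, and genes of mineralization, were also lower at some times. *Fam20c*, the kinase of secreted phosphoproteins such as osteopontin and bone sialoprotein, was lower at 6-dpf (42.8 ± 3.91 CPM in WT and 23.3 ± 1.71 CPM in P-Apex1KO, log2 fold change -0.85, adjusted p = 0.00167) and 10-dpf (-1.32, adjusted p = 0.00986) and was at -1.04 at 14-dpf (adjusted p = 0.138), where it was called without sex (-1.43, adjusted p = 0.00887). *Ggcx*, the vitamin K-dependent carboxylase that osteocalcin needs, was lower at 6-dpf (-0.69, adjusted p = 0.0208) and 14-dpf (-0.70, adjusted p = 0.00691) and was at -0.19 at 10-dpf (adjusted p = 0.229), with the 6-dpf call lost without WT replicate 4 or P-Apex1KO replicate 1 or 3 (adjusted p = 0.0526 to 0.0722). With *Vkorc1*, 3 of 3 such enzymes were lower at 6-dpf, 1 (*Fam20c*) at 10-dpf and 2 (*Ggcx* and *Vkorc1*) at 14-dpf, and 0 at 3-dpf. Of 7 mineralization genes, 0 were called at 3-dpf, 3 were lower at 6-dpf (*Alpl*, *Phospho1* and *Smpd3*), 5 at 10-dpf (those 3, *Ankh* and *Slc20a2*) and 4 at 14-dpf (*Phospho1*, *Ankh*, *Smpd3* and *Slc20a2*), where *Slc20a1* was higher. *Alpl*, the tissue-nonspecific alkaline phosphatase, stood at 607 ± 79.9 CPM in WT and 169 ± 74.0 CPM in P-Apex1KO at 6-dpf (-1.78, adjusted p = 0.00578), was lower at 10-dpf (-0.67, adjusted p = 0.0355) and was at -0.91 at 14-dpf (adjusted p = 0.0508), where it was called without sex (-1.07, adjusted p = 0.00196). *Phospho1*, a phosphatase of matrix vesicles, was lower at all 3 times (-1.38, -0.76 and -1.92, adjusted p = 0.00254, 0.0223 and 0.00209). The 5 mineralization genes of 10-dpf became 0, 1, 0 and 1 without WT replicate 1, WT replicate 2, P-Apex1KO replicate 1 and P-Apex1KO replicate 3, and 3 without sex or in a model of all 30 libraries, and the 4 of 14-dpf became 2 with library size alone. *Alpl* lost that call without these or WT replicate 3 (adjusted p = 0.0648 to 0.199) and in a model of all 30 libraries (adjusted p = 0.352), and *Phospho1* without WT replicate 1 or 2 or P-Apex1KO replicate 1 (adjusted p = 0.0646 to 0.162).

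Of 17 other bone matrix proteins tested, 0 were called at 3-dpf, 8 were lower and 1 higher at 6-dpf, 3 were lower at 10-dpf (*Dmp1*, *Tnc* and *Col24a1*), and at 14-dpf 5 were lower (these 3, *Mepe* and *Col5a2*) and 1 higher (*Mgp*, an inhibitor of calcification). Their medians were -0.62, -0.16 and -0.27 at 6-, 10- and 14-dpf. *Dmp1*, a SIBLING gene of osteocytes, was lower at 6-dpf (-0.63, adjusted p = 0.00981), 10-dpf (-1.72, adjusted p = 0.0364) and 14-dpf (481 ± 94.9 CPM in WT and 90.8 ± 29.5 CPM in P-Apex1KO, -2.38, adjusted p = 0.00711). *Mepe*, another SIBLING gene, was the 1 gene higher at 6-dpf (10.3 ± 3.20 CPM in WT and 43.8 ± 14.9 CPM in P-Apex1KO, 2.04, adjusted p = 0.00592), was at -0.54 at 10-dpf (adjusted p = 0.396) and was lower at 14-dpf (-1.31, adjusted p = 0.00232). *Bgn*, the proteoglycan biglycan, was not called at 6-, 10- or 14-dpf (-0.59, -0.05 and -0.27, adjusted p = 0.128, 0.894 and 0.534), and its sign at 10-dpf turned with library size alone (0.03), without sex (0.01) and without WT replicate 3 or P-Apex1KO replicate 1 (0.07 and 0.06). The 8 lower at 6-dpf became 4, 4, 3 and 5 without WT replicate 2, WT replicate 4, P-Apex1KO replicate 1 and P-Apex1KO replicate 3, and the 3 at 10-dpf became 0, 1, 0 and 1 without WT replicates 1 and 2 and P-Apex1KO replicates 1 and 3 in turn. *Dmp1* lost its 6-dpf call without P-Apex1KO replicate 1 (adjusted p = 0.0818) and its 10-dpf call without any of those 4 or WT replicate 4 (adjusted p = 0.0665 to 0.193). The 6-dpf call of *Dmp1* was also lost in a model of all 30 libraries (adjusted p = 0.349), its 10-dpf call with library size alone (adjusted p = 0.0533) and with no filter (adjusted p = 0.13), and the 6-dpf call of *Mepe* with no filter (adjusted p = 0.0506).

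On the side of the cells that bind this matrix, 0 of 12 receptor genes were called at 3-dpf, 2 were lower at 6-dpf (*Itga1* and *Itga10*), 3 at 10-dpf (*Itgav*, *Ddr2* and *Itga2*) and 5 at 14-dpf (those 3, *Itgb3* and *Itga10*). Their medians were -0.12, -0.21 and -0.36 at 6-, 10- and 14-dpf, where 5.61%, 3.44% and 7.04% of all genes tested were called lower. *Itgav*, the αv chain of the integrins that bind osteopontin and bone sialoprotein, was at -0.09 at 6-dpf (adjusted p = 0.64) and was lower at 10-dpf (-0.80, adjusted p = 0.0273) and 14-dpf (-1.37, adjusted p = 0.0121). *Itgb3*, the β3 chain that pairs with αv on osteoclasts, was lower at 14-dpf (-1.04, adjusted p = 0.00353) and was at 0.03 at 6-dpf (adjusted p = 0.928; its sign turned without sex in the model, to -0.03) and -0.59 at 10-dpf (adjusted p = 0.116). *Ddr2*, a collagen receptor, was lower at 10-dpf (-0.40, adjusted p = 0.0291) and 14-dpf (-0.77, adjusted p = 0.0112). *Cd44*, which binds hyaluronan and osteopontin, was not called at 6-, 10- or 14-dpf (0.29, -0.18 and -0.40, adjusted p = 0.0915, 0.397 and 0.145). At 6-dpf 1 receptor gene was called without any 1 mouse other than P-Apex1KO replicate 2 and with library size alone, and at 10-dpf 0 were without WT replicate 1 or 2 or P-Apex1KO replicate 1 or 3 (*Itgav* adjusted p = 0.0699 to 0.157). *Ddr2* lost its 10-dpf call without any 1 mouse other than WT replicate 4 (adjusted p = 0.0579 to 0.152).

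Other cell types of the callus moved with genotype beside these genes, and their part in the differences was not tested. Over all genes tested, 1075 of 20260 were called higher at 6-dpf, 570 of 18910 at 10-dpf and 865 of 20228 at 14-dpf. At 6-dpf 11 of 11 chondrocyte markers were lower in P-Apex1KO (summed level 30232 to 55541 CPM in WT and 2041 to 4047 CPM in P-Apex1KO). *Col2a1*, the main cartilage collagen, was at -4.68 (adjusted p = 0.000271) and *Col10a1*, of hypertrophic cartilage, at -3.96 (adjusted p = 0.000623). At the same time 7 of 9 skeletal muscle markers were higher (2608 to 4612 CPM in WT and 5926 to 13779 CPM in P-Apex1KO), *Acta1* among them (1.28, adjusted p = 0.0128), as were 5 of 8 macrophage markers (621 to 819 and 1089 to 1252 CPM), *Adgre1*, *Csf1r*, *Mrc1*, *C1qa* and *C1qb*. The 7 muscle markers became 2 with no filter on low counts and 1, 2 and 4 without WT replicate 2, WT replicate 4 and P-Apex1KO replicate 3 (*Acta1* adjusted p = 0.061 and 0.0607 without the WT mice), and the 5 macrophage markers became 3 without P-Apex1KO replicate 1. The genotypes lay apart in all 3 sums. At 3-, 10- and 14-dpf 0 of the 9 muscle markers were called, but 0 had an estimate below 0. Their median log2 fold changes were 0.99, 1.41 and 0.82. Mean muscle sums at these times were 3613, 1748 and 1727 CPM in WT and 7122, 4479 and 6505 CPM in P-Apex1KO, with overlapping ranges. Of 5 osteocyte markers, 2 were lower at 6-dpf (*Dmp1* and *Phex*) and 2 higher (*Mepe* and *Sost*), with overlapping sums (164 to 267 and 138 to 177 CPM). *Adipoq* and *Cidec*, 2 of 3 adipocyte markers, were also higher at that time (26.5 to 88.2 and 45.0 to 109 CPM, overlapping), and 0 of the 3 were without sex, in a model of all 30 libraries or without WT replicate 4.

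At 10-dpf 4 of 7 osteoclast markers were lower (*Acp5*, *Ctsk*, *Ocstamp* and *Dcstamp*), with summed levels of 1786 to 4465 CPM in WT and 821 to 1210.4 CPM in P-Apex1KO, and at 14-dpf 7 of 7 were (7534 to 8651 and 1061 to 1968 CPM). *Acp5* was at -1.63 (adjusted p = 0.0277) and -2.68 (adjusted p = 0.0022), and *Ctsk*, the collagen-degrading protease of osteoclasts, at -1.50 (adjusted p = 0.0361) and -2.40 (adjusted p = 0.00202). The 4 at 10-dpf became 0 without P-Apex1KO replicate 1, 1 without WT replicate 1 or 2 or P-Apex1KO replicate 3 and 2 without WT replicate 4 (*Acp5* adjusted p = 0.0634 to 0.194 and *Ctsk* 0.069 to 0.218), and 1 with no filter on low counts, where the 7 at 14-dpf became 4. At 6-dpf 0 of 7 were called by edgeR, with 1, *Acp5*, at an unadjusted p under 0.05. Of 4 osteocyte markers tested at 10-dpf, 2 were lower (*Dmp1* and *Phex*; 398 to 999 CPM in WT and 224 to 329.6 CPM in P-Apex1KO), and 0 were with library size alone, with no filter or without WT replicate 1, 2 or 4 or P-Apex1KO replicate 1 or 3. Of the 4 tested at 14-dpf, 4 were lower (942 to 1276 CPM in WT and 239 to 428 CPM in P-Apex1KO), and 4 of 4 erythroid markers were higher (781 to 872 and 1814 to 2158 CPM), of which 0 were called in a model of all 30 libraries.

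Macrophage, adipocyte, endothelial and neutrophil markers moved at 10- or 14-dpf as well. At 10-dpf 4 of 8 macrophage markers were higher (*Adgre1*, *Mrc1*, *C1qa* and *C1qb*), with sums that overlapped (617 to 781 CPM in WT and 768 to 862 CPM in P-Apex1KO). They became 0 without P-Apex1KO replicate 1 and 1 without sex or without WT replicate 1 or 2. At 14-dpf 5 macrophage markers were higher and 2 lower (*Csf1r* and *Cd68*), with a median log2 fold change of 1.07 and sums of 1017 to 1185 CPM in WT and 959.6 to 1064 CPM in P-Apex1KO, which overlapped. *Adgre1* was among the 5 (1.16, adjusted p = 0.00698), and *Csf1r* was at -1.12 (adjusted p = 0.00113). The 3 adipocyte markers were all called higher at 10-dpf (17.9 to 24.4 CPM in WT and 41.0 to 79.6 CPM in P-Apex1KO), and 0 were without WT replicate 1 or P-Apex1KO replicate 1. Of 5 endothelial markers, 1 was lower at 10-dpf (*Cdh5*) and 3 at 14-dpf (*Cdh5*, *Kdr* and *Tie1*), with sums of 744 to 816 CPM in WT and 484 to 557 CPM in P-Apex1KO at 14-dpf, and 1 was without WT replicate 2. Of 5 neutrophil markers, 3 were higher at 14-dpf (*S100a8*, *S100a9* and *Ltf*; 815 to 1241 and 1644 to 2205 CPM), 5 without sex and 0 in a model of all 30 libraries. The genotypes lay apart in these last 3 sums.

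At 14-dpf the chondrocyte markers depended on the model. The 11 chondrocyte markers were all called higher at 14-dpf with sex in the model, where WT replicate 1, with the lowest summed level of its group (1462 CPM, against up to 8439 CPM), sets the comparison. *Col2a1* was at 1.84 (adjusted p = 0.0132) with sex and at -0.18 without, 2 of the 11 markers were called without sex, 3 in a model of all 30 libraries and 4 without sex and that mouse, and the P-Apex1KO sums of 6159 to 9443 CPM overlapped those of WT. Each of the 8 bone matrix genes was counted in every library, the lowest count being 30 (*Bglap2* in P-Apex1KO replicate 1 at 3-dpf).

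**Figure D5:**
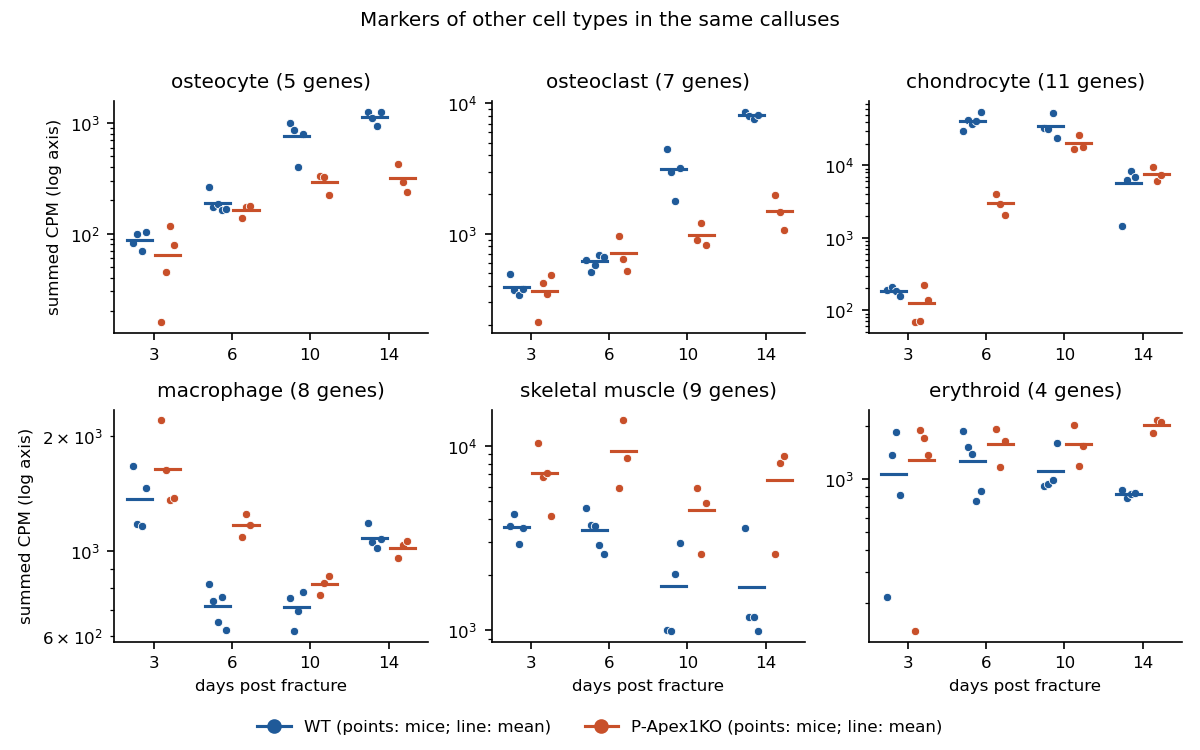
Summed CPM of the markers of osteocytes, osteoclasts, chondrocytes, macrophages, skeletal muscle and erythroid cells in each mouse, on log axes, by days post-fracture and genotype (points are mice, lines are group means). At 14-dpf the osteoclast sum is 7534 to 8651 CPM in WT and 1061 to 1968 CPM in P-Apex1KO, and at 6-dpf the chondrocyte sum is 30232 to 55541 and 2041 to 4047 CPM.

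For each gene the 3 others with the most similar pattern were named by the root mean square difference of log2 CPM over the 30 libraries, after centring each gene, among the 12343 genes whose mean reached 5 CPM, leaving out the 8 themselves. For *Col1a1* they were *Mtss2* (0.25), *Zbtb7c* (0.31) and *Heyl* (0.33), and for *Col1a2* *Tbx2* (0.23), *Eeig1* (0.24) and *Rom1* (0.25). For *Sparc* they were *Ppic* (0.19), *Rftn2* (0.20) and *Gpc1* (0.22). For *Ibsp* they were *Alpl* (0.46), *Tmie* (0.51) and *Itga10* (0.57), and for *Spp1* *Cemip* (0.40), *Notum* (0.41) and *Serpine2* (0.43). For *Ifitm5* they were the collagen genes *Col13a1* (0.27) and *Col24a1* (0.39) and *Kazald1* (0.40). The osteocalcin genes had no neighbour as near, with *Gdpd2* (0.60), *Chst13* (0.61) and *Lipc* (0.73) for *Bglap* and *Chst13* (0.87), *Tnfrsf19* (0.88) and *Ackr4* (0.89) for *Bglap2*. Among the 8 themselves, *Col1a1* and *Col1a2* differed by 0.33, *Col1a2* and *Sparc* by 0.34, *Col1a2* and *Ifitm5* by 0.65 and *Bglap* and *Bglap2* by 0.79. The libraries share depth and time point, and these distances are descriptions without a test.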

How the data were processed

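Fracture callus RNA of 30 mice was measured in the 8 groups described above. The authors depleted rRNA and beta globin transcripts, made stranded libraries, read 59 bases from both ends of each fragment, aligned to mm39 with STAR 2.7.0d and counted uniquely mapped, reverse-stranded reads on Ensembl v104 with featureCounts. They deposited raw whole-number counts per gene and mouse, without normalization. Groups, replicate numbers and sexes came from the labels. GENCODE M39, a later annotation of that build (GRCm39), gave symbols, lengths and positions and holds 54749 of the 55416 identifiers.

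The members and gene lists were chosen with earlier results of these data known. Each time point was fitted with edgeR 4.0.16 in R 4.3.3 (filterByExpr, TMM, genotype and sex, robust quasi-likelihood F tests, Benjamini-Hochberg adjustment over all genes tested, threshold 0.05), and SE is the log2 fold change over the square root of F. Changes over time and their difference were tested in models that joined 2 time points, as 4 groups with sex. No test compares 6- with 10-dpf. Genes named beyond the 8 are the first of each list, *Apex1*, *Bglap3* and the 3 nearest in pattern, and those given beside counts of 5 or fewer were named after their values were seen. Alternatives were DESeq2 1.42.0, other scalings, filters and models, and leaving out each mouse. Groups held 3 to 5 mice, and the lowest counts of *Bglap*, *Bglap2* and *Ifitm5* were 48, 30 and 71.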

Additional observations from a re-analysis of the deposited data

Results flagged for a closer look

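In 3 groups of 4 or 5 mice 1 mouse stood far from the others in the level of a bone matrix gene, among 40 pairs of gene and group examined, of which chance gives about 1 in 20. *Ibsp* in WT replicate 1 at 14-dpf stood at 2121 CPM, against 3882 to 4179.8 CPM in the 3 others of its group. *Bglap2* in WT replicate 4 at 10-dpf stood at 76.43 CPM, against 39.1 to 41.1 CPM. *Ifitm5* in WT replicate 1 at 6-dpf stood at 31.76 CPM, against 14.3 to 16.1 CPM.

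The genotype difference changed between times at an adjusted p under 0.05 in edgeR for 3 genes. These calls were lost in 6 of 16 (*Spp1*), 10 of 14 (*Col1a1*) and 6 of 14 (*Col1a2*) fits without 1 mouse. Those of *Spp1* and *Col1a1* were also lost without sex in the model and with library size alone. From 3- to 6-dpf the log2 fold change of *Spp1* moved by -0.9179, from 0.22 to -0.64 in the fits of each time alone. From 10- to 14-dpf that of *Col1a1* moved by -1.585 and that of *Col1a2* by -1.468.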

How the results depend on the processing

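At 14-dpf the calls of *Col1a1*, *Col1a2*, *Sparc* and *Ifitm5* held under every alternative run, whereas many calls at 6- and 10-dpf lay near the threshold. Groups held 3 to 5 mice, and *Bglap*, *Bglap2* and *Ifitm5* had under 100 counts in some of them. The cause of the changes below was not tested.

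Over all genes, the count called at 3-dpf was 85 under DESeq2, 4 with no filter, 38 in one model of all 30 mice and 1 with the replicate block. It was 3594 with library size alone and 677 with the block at 6-dpf, 2187 under DESeq2 and 750 without sex at 10-dpf, and 6849 without sex and 6188 in one model at 14-dpf. Of the 8 bone matrix genes at 10-dpf, 5 were lower under DESeq2, 1 without sex and 1 with the block. In P-Apex1KO from 3- to 6-dpf 2 were higher under DESeq2, library size alone, a minimum of 10 counts and one model. The genotype difference became more negative from 3- to 6-dpf for 2 under DESeq2, 0 without sex and 0 with library size alone, and from 10- to 14-dpf for 1 with library size alone.

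On leaving out 1 mouse at a time, 2 to 6 of the 8 were lower at 6-dpf, 0 to 3 at 10-dpf and 4 to 6 at 14-dpf, and over all genes 0 to 10, 890 to 2359, 42 to 1827 and 1206 to 3773 were called at 3-, 6-, 10- and 14-dpf (6181 at 14-dpf without WT replicate 1 and sex). From 3- to 6-dpf 6 were higher in WT in every such fit and 0 to 3 in P-Apex1KO, with 0 to 3 differences more negative, and from 10- to 14-dpf 2 to 4 in WT and 0 in P-Apex1KO, with 0 to 3.

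Signs turned as follows under other settings. For *Ibsp*, 3-dpf was -0.1032 with the block, 14-dpf 0.217 with library size alone, and the change of the difference from 10- to 14-dpf 0.04382 with library size alone. For *Spp1*, the P-Apex1KO change from 10- to 14-dpf was 0.0378 with library size alone and 0.03105 in one model. For *Bglap*, 3-dpf was -0.04987 without sex and -0.4262 with the block, and the P-Apex1KO change from 10- to 14-dpf was -0.1686 in one model and -0.06064 with the copies summed. For *Bglap2*, the P-Apex1KO change was 0.02442 from 3- to 6-dpf and 0.2741 from 10- to 14-dpf, both without sex. *Itgav* (0.09665) and *Ddr2* (0.02905) at 6-dpf turned with library size alone, *Itgb3* at 6-dpf without sex (-0.03239), in one model (-0.002038) and with the block (-0.05895), *Lox* at 10-dpf with the block (-0.02913), *Bgn* at 10-dpf without sex (0.006736) and with library size alone (0.03158), and *Col2a1* at 14-dpf without sex (-0.1786), in one model (-0.3852) and without sex and WT replicate 1 (-0.4982).

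Leaving out 1 mouse at a time turned signs within these ranges: *Sparc* at 3-dpf -0.296 to 0.05727, *Ibsp* at 14-dpf -0.2128 to 0.2173 (-0.9704 without WT replicate 1 and sex) and in the difference from 10- to 14-dpf -0.5413 to 0.1852, *Spp1* in P-Apex1KO from 10- to 14-dpf -0.52 to 0.2101, *Bglap* at 3-dpf -0.1034 to 0.4519 and in P-Apex1KO from 10- to 14-dpf -1.357 to 0.4876. For *Bglap2* they were -0.4623 to 0.3362 in P-Apex1KO from 3- to 6-dpf, -1.517 to 0.3046 from 10- to 14-dpf and -2.097 to 0.1153 for the difference, and for *Ifitm5* -0.3198 to 0.1845 in P-Apex1KO from 3- to 6-dpf and -0.05815 to 0.2895 in WT from 10- to 14-dpf. *Itgb3* ran from -0.04036 to 0.08911 and *Ctsk* from -0.05284 to 0.3416 at 6-dpf, and *Lox* from -0.02841 to 0.1586 and *Bgn* from -0.2033 to 0.06588 at 10-dpf. *Col2a1* at 14-dpf ran from 1.624 to 1.957 with sex in the model, and among these fits its sign turned only without WT replicate 1 and sex (-0.4982).

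Replicate numbers are shared between genotypes, and the labels do not say whether they pair mice. The correlation of same-numbered deviations ran from 0.0757 to 0.418 at 3-dpf and from -0.1 to 0.0817 at 6-dpf. It ran from -0.206 to 0.22 at 10-dpf and from -0.266 to -0.0877 at 14-dpf. At 3-dpf 3 of 4 mice correlated best with their own number, as did replicate 3 at 10-dpf, so these values do not settle pairing at 3-dpf. With the replicate number as a block in place of sex, *Bglap* (-1.58, adjusted p = 0.00459) and *Bglap2* (-1.384, adjusted p = 0.00464) were called at 6-dpf, and *Col1a1* (adjusted p = 0.209), *Col1a2* (0.138), *Sparc* (0.171) and *Spp1* (0.0904) were not. With the block, *Mepe* (adjusted p = 0.0646) and *Acta1* (0.0679) lost their 6-dpf calls, *Serpinh1* (0.104) and *Ggcx* (0.0556) theirs, and 0 of the 7 muscle, 2 adipocyte and 2 higher osteocyte markers of 6-dpf and 0 of the 11 chondrocyte markers of 14-dpf were called. For single genes and lists under other settings, 1579 values kept direction and call, 62 lost the call or, for counts, fell by over 1.5 times, 69 gained the call or rose by as much, 21 turned sign and 6 group means moved by over 1 SD. With 1 mouse left out 1497 kept, 181 lost, 40 gained and 42 turned. Those that kept include values called in neither fit. For the counts of bone matrix genes and of all genes called, 101 kept, 41 fell and 8 rose by over 1.5 times with 1 mouse left out.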
